A study of Caenorhabditis elegans with 2 samples.

Results

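The autosomal distal intergenic ELT-3 peaks are ChIP-seq peaks that lie between genes and away from gene starts. They were chosen by position alone. A peak was included when it was on chromosomes I to V, when its summit lay outside the span of every protein-coding gene, and when the summit was more than 1000 bp from the nearest 5′ end of such a gene. The rule was met by 238 of the 1014 peaks in the thresholded list made from both replicates, and by 238 of the 782 on autosomes. The other autosomal peaks were 256 intergenic peaks within 1000 bp of a gene start, 241 intronic peaks and 47 exonic peaks.

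ELT-3 binding was measured in whole first-stage (L1) larvae of Caenorhabditis elegans strain OP75, an unc-119(ed3) line with the transgene wgIs75, which expresses ELT-3 carrying GFP and FLAG at its C terminus. The antibody is listed as elt-3. All samples share this genotype and form 1 group of 2 biological replicates from pooled male and female animals. The files hold peak lists of 17087 rows for replicate 1 and 7079 rows for replicate 2. They also hold a list of 1014 peaks kept by thresholding on the irreproducible discovery rate (IDR), a measure of how alike peaks rank between lists. Of these 1014, 905 overlapped a row of each replicate list. Read depth is unknown, and untagged animals were not analysed here, so the comparisons are between bound and neighbouring sequence and between classes of peaks. Since whole animals were used, the cells in which a peak was bound are not known. No expression was measured, so the labelled stage could not be checked against marker genes.

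ELT-3 is a GATA-family zinc-finger protein of the nematode epidermis, the sheet of cells beneath the cuticle that secretes collagens at every molt. Proteins of this family bind the sequence WGATAR, in which W is A or T and R is A or G, through a zinc finger that contacts the GATA core. The compact worm genome keeps many regulatory elements close to the genes they serve, and a smaller set lies deeper in intergenic sequence or in introns.

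The 5 distal peaks of highest signal on chromosomes II to V are shown first, each as the 101 bases centred on its summit. They are given because they show how GATA sites are placed in the strongest peaks and that a strong peak can lack one. Each peak is named by the protein-coding genes on its left and right in genome coordinates. Bases are from the RefSeq copy of the WBcel235 (ce11) assembly, plus strand, 5′ to 3′, and capitals mark WGATAR on either strand, so that a site on the minus strand reads as TTATCA or a related form.
Y37A1A.2/Y37A1A.4 peak, chrIV:13919351-13919451: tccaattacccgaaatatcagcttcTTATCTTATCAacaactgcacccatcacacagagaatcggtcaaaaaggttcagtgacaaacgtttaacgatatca
pde-2/R08D7.7 peak, chrIII:8986980-8987080: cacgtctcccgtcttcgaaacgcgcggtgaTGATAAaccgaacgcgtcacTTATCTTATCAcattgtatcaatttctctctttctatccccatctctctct
nhr-162/nhr-107 peak, chrV:6994086-6994186: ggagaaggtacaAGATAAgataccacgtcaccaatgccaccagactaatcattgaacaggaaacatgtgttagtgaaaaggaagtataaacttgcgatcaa
irld-18/dmd-6 peak, chrIV:14594371-14594471: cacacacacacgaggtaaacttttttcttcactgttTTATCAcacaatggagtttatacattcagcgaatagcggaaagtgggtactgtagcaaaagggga
gdh-1/tgt-1 peak, chrIV:11956472-11956572: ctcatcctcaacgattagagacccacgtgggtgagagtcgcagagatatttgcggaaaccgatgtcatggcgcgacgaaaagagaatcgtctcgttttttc
The pde-2/R08D7.7 window holds 3 sites, and in it and in the Y37A1A.2/Y37A1A.4 window a TTATCT site runs into a TTATCA site with which it shares 1 base. The gdh-1/tgt-1 window holds 0 sites although its signal of 130.9 ranked 37 in the IDR set.

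The distal windows richest in WGATAR are shown next, because they show sites repeated within a single window, in most of them in both orientations. They are the next 5 peaks by number of sites on the same chromosomes, with ties ordered by signal.
nhr-5 peak, chrIV:15395342-15395442: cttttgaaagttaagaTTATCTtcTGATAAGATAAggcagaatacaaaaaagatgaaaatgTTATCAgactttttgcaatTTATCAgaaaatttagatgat
idpb-4/mak-1 peak, chrII:8740516-8740616: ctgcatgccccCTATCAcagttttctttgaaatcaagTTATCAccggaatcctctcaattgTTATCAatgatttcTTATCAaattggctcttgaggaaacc
sqst-5/zig-13 peak, chrIII:154336-154436: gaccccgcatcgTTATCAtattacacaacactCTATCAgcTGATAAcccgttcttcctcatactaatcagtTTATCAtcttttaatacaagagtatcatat
C08E8.10/C08E8.3 peak, chrV:18346217-18346317: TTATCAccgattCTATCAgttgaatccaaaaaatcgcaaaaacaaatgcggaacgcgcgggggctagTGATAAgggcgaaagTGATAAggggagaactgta
F01G10.9/nspd-7 peak, chrIV:10261171-10261271: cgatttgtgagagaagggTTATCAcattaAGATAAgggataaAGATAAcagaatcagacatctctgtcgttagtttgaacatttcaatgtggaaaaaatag
The nhr-5 window held 5 sites, the most of any distal peak, at a signal of 55.65, which is below the median of the IDR set (61.13). The F01G10.9/nspd-7 window holds 3 sites and the remaining windows hold 4 each.

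WGATAR was more common at distal summits than beside them. A site lay within 50 bp of 143 of 238 distal summits (60.1%, 95% Wilson interval 53.7 to 66.1), against 71 of 238 windows centred 500 bp toward the lower coordinate (29.8%, 24.4 to 35.9). The difference of 30.3 percentage points came from 111 peaks with a site at the summit only and 39 with a site in the flank only (exact McNemar test, two-sided, p = 3.38e-09). The difference was 19.2 points without replicate 1, 17.2 within 25 bp of summits and 48.1 among the highest-signal IDR peaks, and was called in each. Over all 1014 IDR peaks 52.6% had a site at the summit. Windows of the same width tiled over all distal intergenic sequence of the autosomes held WGATAR in 19.7% of 184187 cases. Windows 500 bp toward the higher coordinate held it at 22.3% of distal peaks and windows 1000 bp toward the lower coordinate at 19.3%, so the flank used in the test was the richest of these.

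Distal summits carried WGATAR more often than summits near gene starts. The shares were 60.1% of 238 distal summits and 43.8% of 256 summits near gene starts (112 peaks). The odds ratio was 1.94 and the difference 16.3 percentage points with a 95% Newcombe interval of 7.52 to 24.8 (two-sided Fisher's exact test, p = 0.000628 after Benjamini-Hochberg adjustment over the 2 classes compared). Against intronic summits no difference was called. WGATAR was present at 60.1% of distal and 56.8% of 241 intronic summits, a difference of 3.24 percentage points with an interval from -5.55 to 12 (adjusted p = 0.516, exact test). The flank windows were also unlike between classes, with WGATAR in 29.8% at distal peaks, 20.3% near gene starts and 21.2% in introns. How much of the summit difference from peaks near gene starts goes with this background was not tested.

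**Figure D1:**
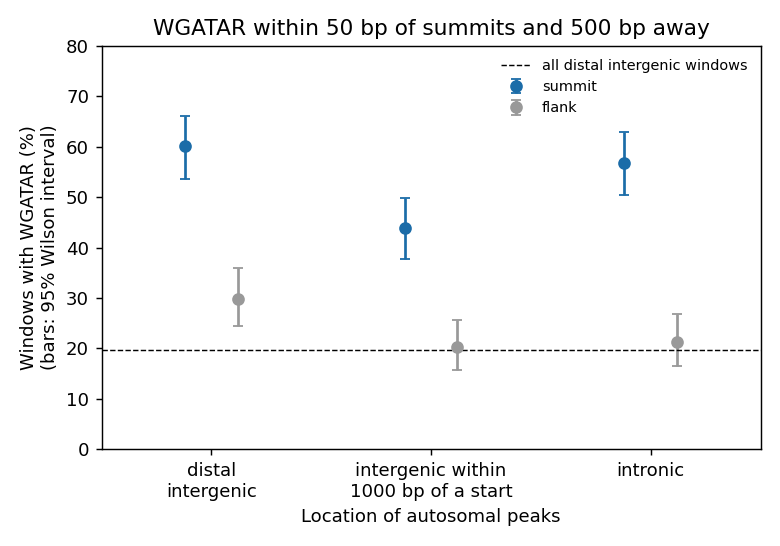
Share of windows with at least 1 WGATAR site (y axis, percent, with 95% Wilson intervals) within 50 bp of the summit (blue) and in the flank window 500 bp away (grey), for the autosomal location classes. Distal summits stand at 60.1%, summits near gene starts at 43.8% and intronic summits at 56.8%, and the dashed line is the 19.7% of all distal intergenic windows.

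Of the site's forms, TGATAA was the most frequent at distal summits. It was present in 42.4% of distal summit windows, 13.9% of flank windows and 8.95% of tiled distal windows. AGATAA was present in 17.2% of summit and 8.82% of flank windows, TGATAG in 13.9% and 5.46%, and AGATAG in 8.4% and 5.04%. Counted as sites, 139 of 238 at summits (58.4%) and 37 of 85 in flanks (43.5%) were TGATAA. Overlapping sites were counted separately.

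More than 1 site was present in 67 distal summit windows (28.2%) and in 11 flank windows (4.62%). By number, 95 distal windows held 0 sites, 76 held 1, 45 held 2, 17 held 3 and 5 held at least 4. For comparison, at least 2 sites were present at 43 summits near gene starts (16.8%) and 58 intronic summits (24.1%). These multiplicities were not tested between classes. Neighbouring sites in distal windows formed 95 pairs, of which 61 were on the same strand and 34 on opposite strands. Their starts were a median of 13 bp apart, and 61 pairs were at most 20 bp apart. The most frequent spacing was 5 bp, in 9 pairs that share 1 base, as in the Y37A1A.2/Y37A1A.4 and pde-2/R08D7.7 windows.

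Sites were densest within 50 bp of the summit and levelled off beyond 100 bp. The 20 bp centred on the summit held 0.164 sites per peak, fewer than the bins to the left (0.231) and right (0.227). Per kilobase of sequence, WGATAR occurred 10.5 times within 25 bp of distal summits, 10 times from 25 to 50 bp, 6.6 times from 50 to 100 bp and 3.61 times from 100 to 150 bp. From 150 bp outward the density was 3.78 and then 3.45. Of the distal peaks, 220 (92.4%) had a site within 250 bp of the summit, and for these the nearest site lay a median of 31 bp away.

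**Figure D2:**
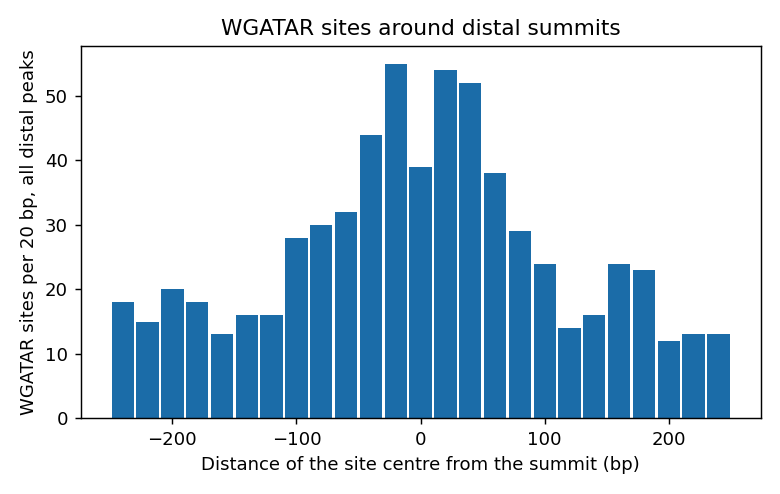
Number of WGATAR sites in each 20-bp bin, totalled over the 238 distal peaks (y axis), by distance of the site's centre from the summit (x axis, bp, lower coordinates on the left). The bins within 50 bp of the summit hold between 39 and 55 sites, and bins beyond 110 bp hold at most 24.

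The share of distal summits with WGATAR varied by chromosome and less by distance to a gene. It was 17 of 43 (39.5%) on chromosome I, 62.7% of 51 on II, 63.5% of 52 on III, 65.2% of 46 on IV and 67.4% of 46 on V. Chromosome I was thus the low value, noticed among these 5 shares and not tested. It was 58.3% of 96 summits from 1000 to 2000 bp from a 5′ end, 60.4% of 111 from 2000 to 5000 bp, and 64.5% of 31 farther out. Among distal peaks with a signal above the IDR median 71 of 106 (67.0%) had a site, and among the others 72 of 132 (54.5%). Among distal peaks overlapped in both replicates 122 of 208 (58.7%) had a site, and among the remaining distal peaks 21 of 30 (70.0%).

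All hexamers were compared between distal summits and their flanks, each merged with its reverse complement. Of these, 133 were called at an adjusted p under 0.05 (6.39%; exact McNemar test, Benjamini-Hochberg over all). More common at summits were 60 (2.88%) and less common 73. The lowest p belonged to GATAAG, found in 31.5% of summit windows and 3.36% of flank windows (exact test, adjusted p = 2.08e-12). It overlaps WGATAR wherever a T or an A precedes it. TGATAA itself had a lower p than all but 4 others (exact test, adjusted p = 3.42e-09).

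A purine-rich sequence also stood near the top of this ranking. GAGAGA was present at 80 distal summits (33.6%) and 17 flanks (7.14%), with an adjusted p of 2.83e-09 by the exact test, and in 5.58% of tiled distal windows. AAGAGA occurred in 32.8% of summit windows and 8.4% of flank windows (exact test, adjusted p = 2.73e-08). GAGAGA and WGATAR both occurred at 46 distal summits, WGATAR alone at 97, GAGAGA alone at 34 and neither at 61. The other 6 hexamers among the 10 with the lowest p were made of A and T and were less common at summits. AAAAAT, for instance, occurred in 16% of summit windows and 48.3% of flank windows. The adjusted p of these 6 by the exact test ran up to 1.71e-07, that of ATTTAA. Bases within 50 bp of distal summits were 41.4% G or C, against 33.7% in flanks and 34.4% in tiled distal windows, and the part of base composition in these calls was not tested.

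Between distal summits and summits near gene starts 5 hexamers were called (0.240%; Fisher's exact test, Benjamini-Hochberg over all), all less common at distal summits, and 169 had an unadjusted p under 0.05. GCCAAC was present at 0.42% of distal summits and 7.42% of summits near gene starts, and GCTCCA had the same shares. GAGCGC was present at 2.1% and 11.3%, AAATGC at 2.94% and 12.5%, and CGGCGC at 0 and 5.47%. The smallest adjusted p was 0.0348. Neither the count nor the direction was stable: 0 hexamers were called in 4 alternatives, while 6 of 16 without replicate 1, 4 of 14 without replicate 2 and 3 of 8 in the pooled list were more common at distal summits. TGATAA (42.4% of distal and 28.9% of near-start summits) and GATAAG (31.5% and 19.1%) each had an adjusted p of 0.179 here, and GAGAGA (33.6% and 24.2%) one of 0.476. G and C made up 41.4% of bases at distal summits and 44.3% at summits near gene starts, and their part in these calls was not tested.

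By signal, fewer distal peaks than peaks near gene starts lay above the median of the IDR set. The signal is the peak caller's value as deposited and ranks peaks within a list, and its scale differs between lists. Distal peaks had signals from 46.3 to 218.5 with a median of 59.38, against a median of 63.65 and a highest value of 242.8 near gene starts, and a median of 60.6 in introns. By construction 50% of IDR peaks lay above the IDR median. Of distal peaks 106 of 238 (44.5%) did, against 144 of 256 near gene starts, a difference of -11.7 percentage points (interval -20.3 to -2.89; Fisher's exact test, odds ratio 0.625, p = 0.0232 after adjustment). Against intronic peaks the difference was -3.59 percentage points (interval -12.4 to 5.3, exact test, adjusted p = 0.464). The call against peaks near gene starts was lost in 6 of 10 alternatives, in 1 of which the odds ratio was 1.02, among the highest-signal peaks of replicate 1 alone, so it depends on these choices.

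Most distal peaks overlapped a row of each replicate's own list. The IDR set was made from these lists, so the overlap is largely built in and is not independent support. A peak of replicate 1 overlapped 226 (95%) and a peak of replicate 2 overlapped 215 (90.3%). Both did so for 208 of 238 distal peaks (87.4%), against 89.3% of all IDR peaks, 238 of 256 near gene starts and 211 of 241 in introns. The difference from peaks near gene starts was -5.57 percentage points with an interval from -11 to -0.312 (p = 0.0948 by Fisher's exact test after adjustment), and that from intronic peaks was -0.157 with an interval from -6.16 to 5.83 (p = 1.0 by the same exact test). Among the 507 IDR peaks of highest signal the first of these was called (odds ratio 0.0989, exact test, adjusted p = 0.0226). The shares there were 93.4% of distal and 99.3% of near-start peaks, so this odds ratio rests on few peaks without overlap.

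Long replicate lists make any overlap a lenient criterion. Of the distal peaks 134 (56.3%) overlapped one of the 1014 highest-signal rows of replicate 1, 133 (55.9%) of replicate 2, and 105 (44.1%) of both, against 53.1% near gene starts and 41.5% in introns. In all, 5 distal peaks overlapped no row of either replicate. These were flanked by F53F1.3 and F53F1.4, nas-7 and srd-55, acdh-6 and doxa-1, F53F1.4 and cut-2, and ptc-3 and Y110A2AL.5. Across the 208 distal peaks found in both, the replicates' signals had a Spearman rho of 0.704, a description over peaks of 2 libraries.

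**Figure D3:**
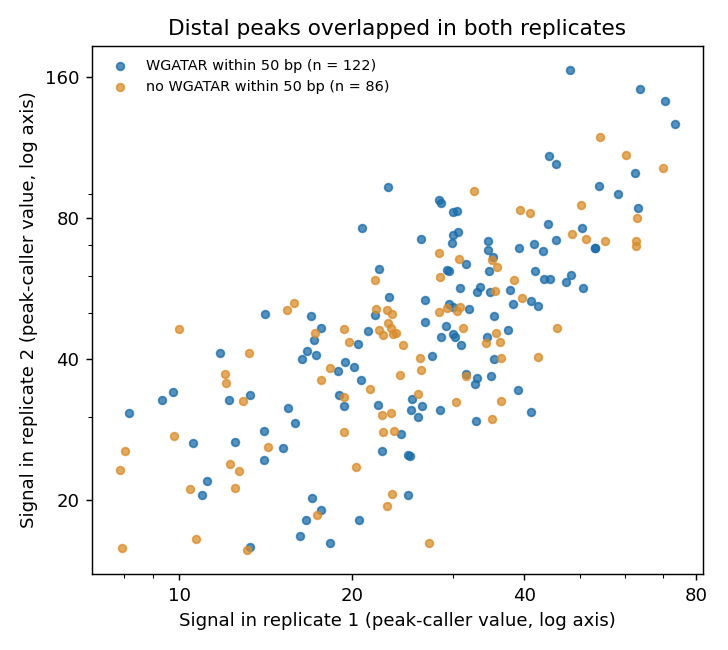
Signal in replicate 1 (x axis, log scale) against signal in replicate 2 (y axis, log scale) for the 208 distal peaks overlapped by a row of each list, as peak-caller values whose scale differs between lists. Blue points have WGATAR within 50 bp of the summit (122 peaks) and orange points have none (86 peaks), and the kinds overlap over much of the range.

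The highest distal signal lay between Y37A1A.2 and Y37A1A.4, at chrIV:13919273-13919528. Its signal was 218.5 in the IDR set, at rank 3 of 1014, and 70.35 in replicate 1 and 141.9 in replicate 2. The summit is 6372 bp from Y37A1A.2 and 14985 bp from Y37A1A.4, genes that point away from each other, and its window holds 2 WGATAR sites.

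Next came a peak between the facing 3′ ends of cbl-1, which encodes a cystathionine beta-lyase, and lin-41, the RNA-binding TRIM protein of the heterochronic pathway that times larval development. It lies at chrI:9332501-9332756. Its signal was 194.8 in the IDR set (rank 10), 73.39 in replicate 1 and 126.7 in replicate 2. The summit is 2171 bp from the end of lin-41, lies inside the non-coding RNA gene C12C8.8 and has 4 WGATAR sites. Its companion in the same interval, 635 bp away, had a signal of 62.26, 2 sites, and overlapped a replicate 2 row (32.14) but none of replicate 1.

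The peak between pde-2, a cyclic nucleotide phosphodiesterase gene, and R08D7.7, at chrIII:8986902-8987157, had a signal of 168.1 (58.25 in replicate 1 and 89.68 in replicate 2). Another distal peak in that interval had 83.94 (34.63 and 68.33), and each summit window holds 3 WGATAR sites. Between mstr-1 and nars-1, which codes for an asparaginyl-tRNA synthetase, the signal was 159.4 (44.29 and 108.3). The intergenic peak of nhr-162 and nhr-107, a pair of nuclear hormone receptor genes, had 142.1 (23.1 and 93.22), with its replicate 1 row at rank 990 and its replicate 2 row at rank 60.

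The order of signal was not the same in every list. A peak between die-1, a C2H2 zinc-finger gene needed in the embryonic epidermis, and lact-2, at chrII:10074077-10074332, ranked 40 in the IDR set with 129.3. It had ranks of 1399 in replicate 1 (19.77) and 729 in replicate 2 (43.48), and 0 WGATAR sites. By contrast the peak between Y37D8A.4 and Y37D8A.5 had 128.1 in the IDR set and ranked 116 in replicate 1 (48.12) and 6 in replicate 2 (165.4).

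Further peaks among the 20 highest lie beside genes whose products are well known. Between gdh-1, for glutamate dehydrogenase, and tgt-1, for a tRNA-guanine transglycosylase subunit, the IDR signal was 130.9 (40.9 in replicate 1 and 81.94 in replicate 2). Between cyp-14A5, a cytochrome P450 gene, and rhr-1, for a Rhesus-type transporter, it was 116.7 (30.71 and 74.52). The xdh-1/F55B11.6 peak, beside the xanthine dehydrogenase gene, had 114.0 (54.02 and 93.55). The plin-1/cutl-6 peak had 110.2 (22.31 and 62.05) and lies 41 bp past the end of plin-1, for the lipid-droplet protein perilipin, and 5860 bp from cutl-6, a cuticlin-like gene. The acs-5/Y76A2B.4 peak, beside an acyl-CoA synthetase gene, had 103.4 (24.36 and 27.65), and the kmo-1/R07B7.6 peak, beside the kynurenine 3-monooxygenase gene, 102.1 (19.44 and 39.31).

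The rest of the 20 were flanked by irld-18 and dmd-6 (IDR signal 139.5), idpb-4 and mak-1 (125.6), Y38E10A.14 and nspe-7 (112.3), F01G10.9 and nspd-7 (111.2), sqst-5 and zig-13 (107.5), F45D3.4 and sel-1 (97.55), and dlk-1 and F33E2.10 (95.69). All 20 had a row in each replicate list, with ranks down to 1447 in replicate 1 and 1894 in replicate 2. WGATAR was present at 16 of the 20 summits, against 60.1% of all 238 distal summits. In the IDR set, distal peaks made up 2 of the 10 highest signals, 4 of the highest 20 and 19 of the highest 100, against 238 of all 1014. They were thus no more frequent among the highest signals than in the whole set.

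Distal peaks lay at a median of 2265 bp from the nearest 5′ end, with a lowest distance of 1001 and a highest of 13382 bp. More than 2000 bp away were 142, more than 5000 bp 31 and more than 10000 bp 6. Just inside the threshold were summits at 1001, 1024 and 1028 bp with signals of 60.5, 50.8 and 64.8. Just outside it were summits at 983, 973 and 969 bp with signals of 92.3, 83.4 and 96.1, so the limit divides peaks of a continuous range of distances.

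Distal intergenic sequence is 18941850 bp, or 22.9% of the autosomes, and held 12.6 peaks per megabase. Because the rule fixes location, the shares that follow are set beside the share of that sequence and were not tested. Summits lay upstream of their nearest 5′ end for 180 peaks (75.6%), against 66.9% of distal sequence. Intervals between genes pointing away from each other held 81 peaks (34% of peaks, 29.5% of sequence), those between genes in tandem held 142 (59.7% and 53.7%), and those between facing 3′ ends held 15 (6.3% and 16.8%). The convergent intervals were thus the ones with fewer peaks than their length would give, at 4.73 per megabase against 14.5 in divergent and 14 in tandem intervals.

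Along the chromosomes distal peaks were denser in the middle. The central 50% of each chromosome's length held 162 (68.1%) of distal peaks and 46.5% of distal sequence. Densities were 15.5 peaks per megabase on chromosome I, 14.6 on II, 18.9 on III, 9.38 on IV and 9.13 on V. Bases marked as repeats or low complexity in the assembly made up 13.4% of bases within 50 bp of distal summits and 41.3% of distal sequence, and 118 distal windows held none. Intervals longer than 10000 bp held 64 peaks (26.9%) and 34.3% of the sequence.

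Non-coding genes were not part of the rule, and some distal summits lay in or near them. A gene of the biotype ncRNA contained 15 summits (6.3%, against 1.41% of distal sequence), a lincRNA 3 (1.26%, against 0.793%) and a tRNA gene 1. Pseudogenes contained 0 summits, although they cover 12.4% of distal sequence, and 7 summits (2.94%) were within 1000 bp of a pseudogene, against 20% of sequence. Small nucleolar RNA genes were within 1000 bp of 8 summits (3.36%, against 0.647%) and miRNA genes within 1000 bp of 5 (2.1%, against 0.66%). Piwi-interacting RNA genes, which are densely packed in parts of chromosome IV, were within 1000 bp of 19 (7.98%, against 12.5%).

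The highest signals inside non-coding genes were at C12C8.8 near lin-41, ZK829.13 between gdh-1 and tgt-1, linc-96 with F08F3.12 between cyp-14A5 and rhr-1, F45D3.12 between F45D3.4 and sel-1 (97.55), and C17G10.11 between C17G10.6 and C17G10.7 (76.32). The last had high rows in both replicates, 60.27 in replicate 1 (rank 45) and 108.9 in replicate 2 (rank 32). With genes of every biotype in the distance rule, 156 of the 238 remained distal.

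**Figure D4:**
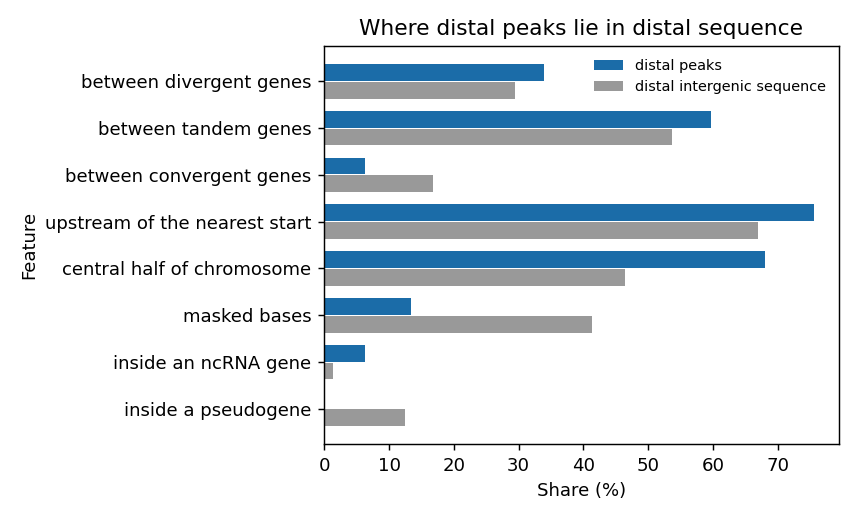
Percent (x axis) of the 238 distal peaks (blue, upper bar of each pair) and of all distal intergenic sequence (grey, lower bar) with each feature named on the y axis. Peaks exceed sequence for divergent intervals (34% and 29.5%) and for the middle of the chromosomes (68.1% and 46.5%), and fall below it for convergent intervals (6.3% and 16.8%).

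Distal peaks often had a neighbour. Another IDR summit lay within 5000 bp of 105 distal peaks (44.1%), 25% of peaks near gene starts and 46.1% of intronic peaks. Within 1000 bp the shares were 11.8% of distal peaks, 6.64% near gene starts and 10.4% in introns. Counting distal neighbours alone, 69 distal peaks had one within 5000 bp and 24 within 1000 bp. The 238 peaks occupied 200 intergenic intervals, of which 172 held 1 distal peak, 22 held 2, 2 held 3 and 4 held 4. Peaks in one interval are not independent observations of the genes beside it.

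The intervals with 4 distal peaks were those of dmd-6, dmd-7, egl-27 and Y37D8A.4. In the 35563-bp interval between irld-18 and dmd-6, a DM-domain transcription factor gene, the signals were 139.5, 56.3, 54.75 and 68.59 along the chromosome. The strongest stood apart, 13382 bp from irld-18 and 22182 bp from dmd-6, while the other peaks lay 4284, 3885 and 2165 bp upstream of dmd-6. Each of these windows held 1 WGATAR site.

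Upstream of dmd-7, another DM-domain gene, signals of 67.82, 73.47, 67.29 and 61.64 followed each other in the 9196 bp after K08B12.3. They belonged to a run of 6 IDR peaks on chromosome V, in which neighbouring summits were no more than 5000 bp apart, with first and last summits at 6238487 and 6247542. A second run of 6 peaks, 4 of them distal, spanned 7974 bp at 12549011 to 12556985 on the same chromosome and ended at F45D3.4 and sel-1.

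Between snt-1, the synaptotagmin gene, and egl-27, whose product is a metastasis-associated (MTA) type protein with a GATA-type zinc finger, the signals were 47.14, 70.34, 55.51 and 51.47. The first pair lay 13068 and 12526 bp from egl-27, and the last pair 7490 and 5848 bp from it. The peak at 7490 bp overlapped no replicate 2 row. Between Y37D8A.4 and Y37D8A.5 the signals were 49.18, 73.59, 128.1 and 61.48.

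Sets of 3 distal peaks lay before lrp-1 and let-805. Upstream of lrp-1, which encodes a megalin-like receptor required for molting, the signals were 54.9, 58.85 and 60.98 at 4526, 2265 and 1056 bp. The replicate 1 signals were 10.44, 31.32 and 23.59 and the replicate 2 signals 21.05, 46.49 and 45.18, so the peak farthest from the gene was lowest in both lists. None of these 3 windows held WGATAR or GAGAGA. Before let-805, for the myotactin that links epidermis to muscle, the signals were 47.07, 56.98 and 46.3, at 11115, 10357 and 1728 bp, and the first overlapped no replicate 2 row.

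Among the 22 intervals with a pair of distal peaks were those of fat-1 and fat-2, which encode fatty acid desaturases (77.97 and 69.72), of unc-49 and hpd-1 (64.35 and 55.09), of emb-8 and morc-1 (94.01 and 56.18), of ptc-3 (47.77 and 77.06) and of nhr-46 (57.35 and 93.96). In the nhr-46 interval the summits are 5080 and 6661 bp upstream of this nuclear hormone receptor gene and neither holds WGATAR. In that of ptc-3, a Patched-family gene, the weaker peak overlapped no row of either replicate. These examples were chosen after their values were seen.

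**Figure D5:**
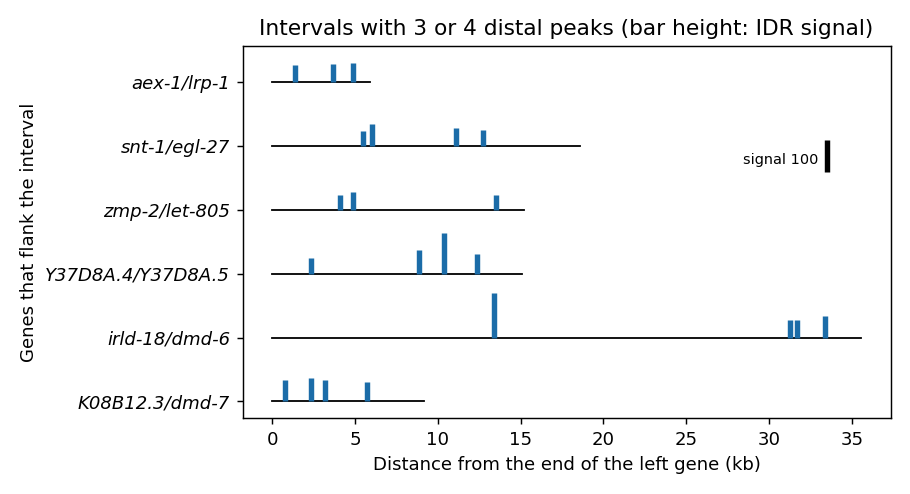
Distal peaks (blue bars) in the 6 intergenic intervals that hold 3 or more, each interval a horizontal line named by its flanking genes (y axis), by distance from the end of the left gene (x axis, kb). Bar height is the IDR signal, with a bar of 100 as the scale, and the highest bars are 139.5 between irld-18 and dmd-6 and 128.1 between Y37D8A.4 and Y37D8A.5.

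The 238 peaks were flanked by 390 distinct protein-coding genes, and 10483 genes flank some distal sequence. Gene lists are described by their share of each, without a test, since genes beside long intervals have more room for a peak. Among regulators, 2 of the 390 were on a list of epidermal transcription and timing factors (0.513%, against 0.134% of all flanking genes): lin-41 and blmp-1, a zinc-finger repressor of developmental timing. The blmp-1 peak lies 3088 bp upstream and had a signal of 68.85, with 29.3 in replicate 1 and 51.22 in replicate 2, and GAGAGA sites but 0 WGATAR. Nuclear hormone receptor genes numbered 11 (2.82%, against 1.74%), led by nhr-162, nhr-107, nhr-46, nhr-258 and nhr-31. Of these, nhr-162 and nhr-107 flank the same peak, as do nhr-258 and nhr-31, so the genes are not separate observations. From a list of C2H2 zinc-finger genes, made by symbol and not complete (die-1 is not on it), 5 were present (1.28%, against 0.248%), namely blmp-1, ztf-27, klf-1, ztf-29 and ztf-6.

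The list of homeobox and Hox genes, which was matched by symbol and also takes in Pax-related genes, gave 3 (0.769%, against 0.601%), the homeobox genes ceh-22 and lim-7 and the Pax-related npax-1, and basic helix-loop-helix genes numbered 2, hlh-10 and mml-1 (0.513%, against 0.219%). Of the GATA list egl-27 was present (0.256%, against 0.0668%). Of the forkhead and T-box lists 0 genes were present, and these lists hold 0.0859% and 0.143% of all flanking genes. From the Wnt, TGF-beta and Notch list tig-3 was present, at 11547 bp (0.256%, against 0.286%).

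Lists of cuticle and epidermal surface genes each gave between 0 and 5 members. Cuticle collagens numbered 5 (1.28%, against 0.849%). The col-145/col-10 peak had a signal of 59.19 (25.41 in replicate 1 and 31.04 in replicate 2). It lies 124 bp from the 3′ end of col-10 and 1163 bp upstream of col-145. The others were col-139 and col-128, with peaks 1190 and 121 bp past their 3′ ends, and col-98, with a peak 4922 bp upstream. The list of zona pellucida domain genes, which was matched by symbol, gave cutl-6 and the cuticlin gene cut-2 (0.513%, against 0.305%). Whether each listed gene encodes the domain was not checked. The cut-2 peak (48.91) is one that overlapped no replicate row. Hedgehog-related and Patched-related genes gave ptc-3, ptr-14 and ptr-25 (0.769%, against 0.477%). Molting genes gave lrp-1 and mlt-7 (0.513%, against 0.114%). Adhesion genes gave let-805 and hmp-1, which encodes alpha-catenin (0.513%, against 0.248%). The mlt-7 peak, 1734 bp upstream of this peroxidase gene, had a signal of 68.02, with 48.53 in replicate 1 and 73.74 in replicate 2. Epidermal antimicrobial peptide genes numbered 0 of the 14 that flank distal sequence (0.134% of all flanking genes).

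Chemoreceptor genes made up a smaller share of the genes beside distal peaks than of all genes beside distal sequence. These genes, expressed mainly in sensory neurons, numbered 9 (2.31%, against 9.3%). C-type lectin genes numbered 3 (0.769%, against 1.51%), neuropeptide and insulin-like genes 2, ins-13 and ins-8 (0.513%, against 0.811%), and cytochrome P450 and UGT genes 1 (0.256%, against 0.763%). Ribosomal protein genes numbered 0 of 22 (0.21% of all flanking genes). Apart from the chemoreceptors, these counts are small, and their lower shares rest on few genes.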

How the data were processed

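Peak lists on ce11 were used. Per the deposited records, replicate lists and a list from pooled replicates were made from ChIP and control alignments, and the IDR set from those lists. The aligner, the caller and its thresholds were not stated in the labels or files. The authors deposited a signal per peak and a q-value-type score, which entered no test. Genes were the 19973 protein-coding genes of Ensembl release 115 (WBcel235, which is ce11), with 1-based coordinates. A 5′ end is the gene's most upstream annotated base. Overlap meant at least 1 bp. The nearest gene by span end on each side was taken as flanking.

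Both strands were searched for WGATAR, up to 50 bp on each side of a summit. Peaks, not animals, are the units of the tests, so p-values measure spread between peaks of 2 libraries, and intervals cover counting error only. The members, gene lists and tests were chosen with earlier results of these data known. Named genes were those flanking the 20 highest distal signals, up to 4 per gene list, those of intervals with 3 or more distal peaks, the 5 highest summits in non-coding genes and the 10 hexamers of lowest p. Other names, including further list members and the interval pairs, were chosen after their values were seen. A Fisher's exact test of GAGAGA alone between classes was run, dropped as unplanned and replaced by its value in the test over all hexamers. The hexamer tests were tried on genome windows away from autosomal IDR summits, with TGATAA planted at random in a part of them. Tests ran in scipy 1.17.1 and statsmodels 0.14.6, tables in pandas 2.3.3 and numpy 2.4.6, and figures in matplotlib 3.10.9, under Python 3.11.15.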

Additional observations from a re-analysis of the deposited data

How the results depend on the processing

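The number of distal peaks was 142 with a distance of 2000 bp, 156 with genes of every biotype and 106 among the 507 IDR peaks of highest signal. It was 213 to 225 among the 1014 highest-signal peaks of a single replicate. WGATAR at distal summits against flanks (16 alternatives) and against summits near gene starts (14) kept direction and call, with differences from flanks of 17.2 to 48.1 points (19.2 to 24 with a replicate left out). Against intronic summits the result stayed uncalled in 14 alternatives and was called in 1 (odds ratio 1.54, exact test, adjusted p = 0.0436), in which genes of every biotype defined distance and summits inside non-coding genes counted as intronic. Leaving those summits out gave 1.36 (exact test, adjusted p = 0.173), a handling set after the first value was seen.

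The odds ratio for signal above the median, distal against near gene starts, was no longer called at 2000 bp (0.704), with genes of every biotype (0.693), among the highest-signal IDR peaks (0.831), in the pooled list (0.988) or without replicate 1 (0.924), and was 1.02 without replicate 2. Overlap with both replicates gave an odds ratio of 0.0989 among the highest-signal IDR peaks (93.4% of distal and 99.3% of near-start peaks). It could not be computed for pooled peaks, of which 100% of distal, 99.3% of near-start and 100% of intronic ones overlapped both. The cause was not tested.

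Hexamers called against flanks numbered 200 at 500 bp and 46 at 2000 bp, 45 with genes of every biotype, 45 among the highest-signal IDR peaks, 45 within 25 bp and 237 within 100 bp, and 126 to 130 with a replicate left out. Hexamers called between distal and near-start summits, under alternatives chosen after seeing the data, numbered 20 at 500 bp, 8 in the pooled list, 1 within 100 bp, 14 to 16 with a replicate left out, and 0 at 2000 bp, with genes of every biotype, among the highest-signal IDR peaks and within 25 bp. Fewer peaks entered most of the lower counts. No paired analysis was possible because the samples form 1 group. Read depth is unknown, which limits what weak peaks can show.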
